A study of Neurospora crassa with 2 samples.

Results

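The respiratory chain and cytochrome genes of Neurospora crassa were taken as every gene of the deposited expression table whose name starts with nuo, cyt, cox, cya, cyc, atp or aod followed by a number. This gave 49 of the 10559 genes in the table. The members were chosen by symbol, but the family was looked at because ratios of cyt genes in these same columns had already been seen to be high, so every value below is a description and none was tested. The table holds mRNA-seq of polyA RNA from hyphae of the wild type (the bd strain 301-5, grown in minimal medium with 2% glucose) kept in constant darkness for 20 hr (DD20) or 12 hr (DD12). There is 1 deposited column per time point, made from equally pooled independent RNA samples. The sources used here do not say whether a column holds one of the duplicates or both combined.

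The respiratory chain passes electrons from NADH to oxygen across the inner mitochondrial membrane, and the ATP synthase uses the proton gradient that results. Complex I oxidises NADH, complex III reduces cytochrome c, and complex IV (cytochrome oxidase) reduces oxygen. Most subunits are made from nuclear genes and imported, while a few catalytic ones are made inside the organelle, so the nucleus must also supply the proteins that transcribe, splice and translate mitochondrial RNA. In Neurospora many of these genes were first found as mutants lacking cytochromes, hence the symbols cyt and cya. Like many fungi, it also carries an alternative oxidase, which takes electrons from quinol and bypasses complexes III and IV.

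Levels are given as RPKM, reads scaled to the length of the gene model and to the library total, so levels of different genes can be set side by side. Ratios are log2((RPKM at DD20 + 1)/(RPKM at DD12 + 1)), where 0.58 is 1.5-fold. The steps between low RPKM values gave totals of 29960356 reads at DD20 and 30712952 reads at DD12. With these, a length giving whole reads at both times was found for 48 of the 49 genes. It was unique for 35, and for the rest the fewest possible reads were used. From the reads, 95% intervals (exact Clopper-Pearson) were computed for the plain ratio without the added 1. They cover counting error only. Variation between RNA pools has no measure here, as no replicate columns are given, so no difference between the time points could be held against a replicate spread. The median ratio over all 7414 genes that averaged at least 1 RPKM was 0.15, and -0.027 after each column was rescaled without the 10 most abundant genes. This is a shift of -0.18 in the median. The rescaling multiplied levels at DD20 by 0.870 and so lowers every ratio below. Abundant genes, on which the added 1 weighs little, shift slightly more, as with nuo78 (0.299 before and 0.099 after).

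Of the 49 genes, 48 reached a mean of 1 RPKM, and the exception was aod-3. The ratio was above 0 for 41 of the 48, against 66.2% of all genes, and after the rescaling for 30 of the 48, against 46.5% of all genes. The median ratio was 0.31, and 0.10 after rescaling, and 33 genes lay above the median of all genes while 15 lay below it. At a threshold of 1.5-fold, 8 were higher at DD20 (cyt-19, cyt-5, aod-1, cyc-1, atp-1, cyt-18, cyt-2 and nuo20.9), against 8.40% of all genes, and 1 was lower (nuo21.3a), against 6.66%. After rescaling, 1 of the 48 was higher (cyt-19), against 3.02% of all genes, and 1 was lower (nuo21.3a), against 10.4%. None of the 48 was higher by 2-fold, against 0.742% of all genes, and none was lower by 2-fold, against 2.33%. The counting interval, taken before rescaling, lay above 0 for 34 genes, below 0 for 5 and across 0 for 9. Intervals were not computed for all genes, so these counts have no background share. Their median half-width was 0.092, less than the shift made by rescaling.

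**Figure D1:**
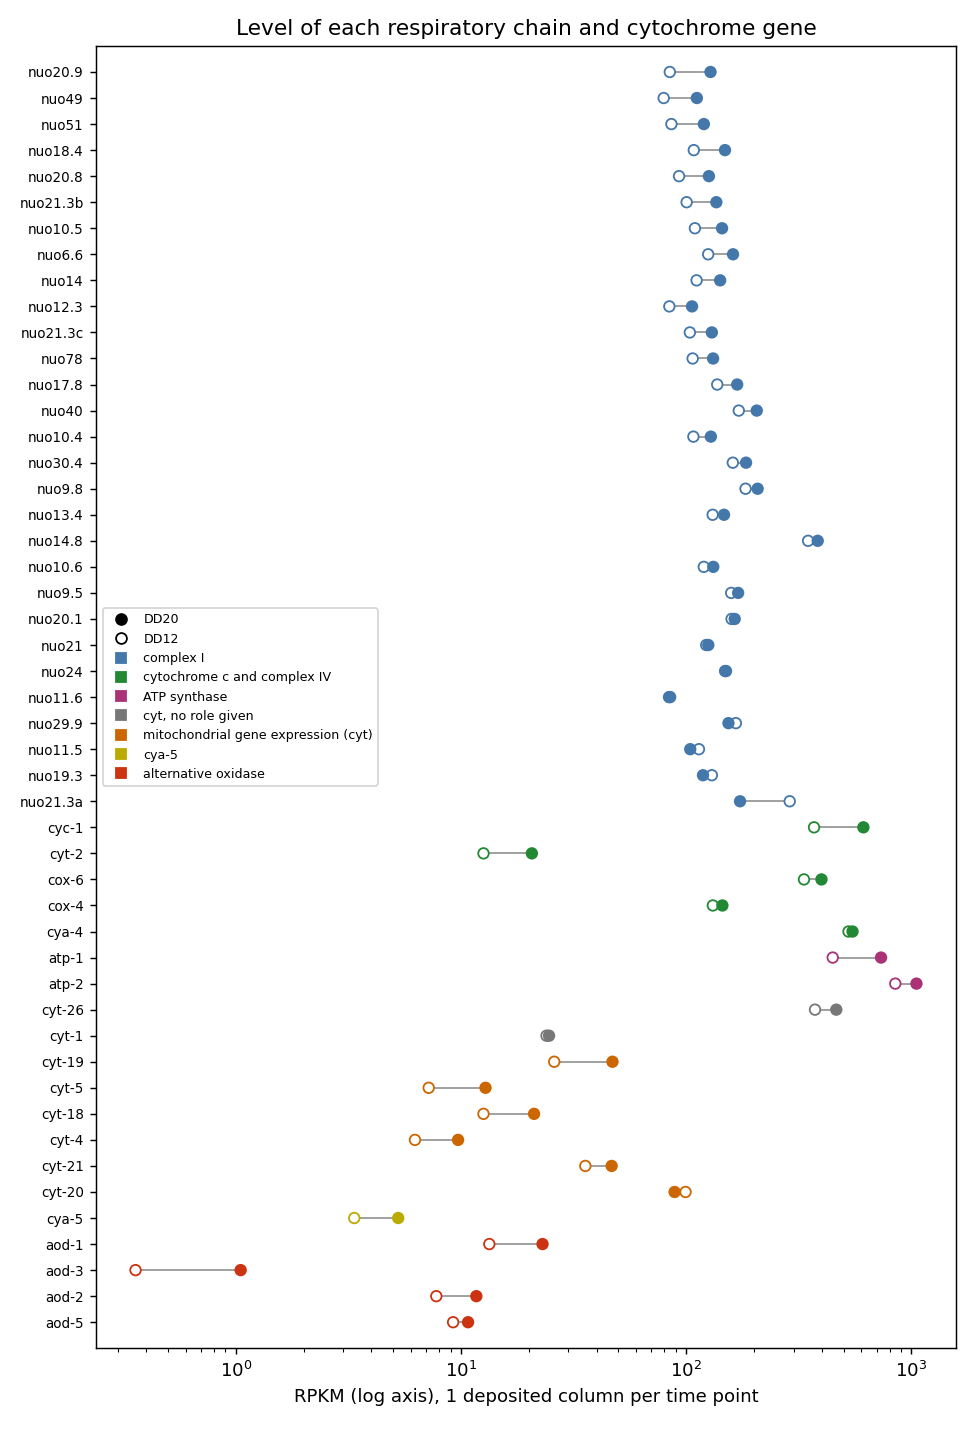
Level of each of the 49 genes in RPKM (log axis) at DD20 (filled points) and at DD12 (open points), coloured by group and ordered within a group by ratio. Complex I genes lie between 79.4 and 384 RPKM, genes of mitochondrial gene expression and of the alternative oxidase lie below 100 RPKM, and nuo21.3a is the complex I gene whose points are farthest apart with DD20 on the left.

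Complex I is the largest group, with 29 nuo genes, most of which are named after the mass of their protein. Their levels had a median of 141 RPKM at DD20 (83.9 to 384) and 120 RPKM at DD12 (79.4 to 348). The summed level of the 29 genes was 4384 RPKM at DD20 and 3924 RPKM at DD12, a ratio of 1.12, against 1.04 for all 10559 genes. These sums are before rescaling. The rescaling factor given above would put the DD20 sum of the 29 genes below their DD12 sum. The direction of the summed level thus depends on the scaling. The median log2 ratio of the 29 genes was 0.26, and 0.056 after rescaling. Of the 29, 23 were above 0 and 6 below it, against 66.2% of all genes above 0. After rescaling 15 were above and 14 below, against 46.5% of all genes above 0. The highest ratios were those of nuo20.9 (128 RPKM at DD20, 84.5 RPKM at DD12, log2 ratio 0.59), nuo49 (111 and 79.4 RPKM, 0.48) and nuo51 (120 and 86.0 RPKM, 0.47).

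The lowest ratio of all members was that of nuo21.3a, which encodes a subunit of the complex. It had 173 RPKM at DD20, from 7241 reads, and 288 RPKM at DD12, from 12334 reads, a log2 ratio of -0.73 with a counting interval of -0.79 to -0.67. The other 28 nuo genes lay between -0.13 and 0.59. At DD12, nuo21.3a was the second most abundant of the 29 and stood at 2.41 times the median nuo gene. At DD20 it was the fifth, at 1.23 times the median. Among the 29 genes, the coefficient of variation of the level was 35.1% at DD20 and 43.5% at DD12, and without nuo21.3a it was 35.8% at DD20 and 40.0% at DD12. The RefSeq span of nuo21.3a overlaps that of NCU08929, which had 3.22 RPKM at DD20 and 3.47 RPKM at DD12. Whether reads from the overlap bear on the ratio of nuo21.3a was not tested. The next lowest were nuo19.3 (119 RPKM at DD20, 130 RPKM at DD12, log2 ratio -0.13), nuo11.5 (104 and 114 RPKM, -0.13) and nuo29.9 (154 and 166 RPKM, -0.11). Their counting intervals lay below 0, but reached up to -0.051, -0.027 and -0.011.

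The most abundant nuo gene at both times was nuo14.8, with 384 RPKM at DD20 and 348 RPKM at DD12, a log2 ratio of 0.14. The least abundant by mean was nuo11.6, with 83.9 RPKM at DD20 and 84.9 RPKM at DD12, a log2 ratio of -0.017. These 2 genes therefore differed 4.57-fold in level at DD20 and 4.10-fold at DD12, while both lay below the median of all genes in ratio. For nuo24, nuo11.6, nuo21, nuo20.1 and nuo13.4 the counting interval crossed 0. In all, 18 of the 29 genes had ratios between 0.10 and 0.46, among them nuo40 (0.26), nuo30.4 (0.19), nuo10.5 (0.40) and nuo18.4 (0.46).

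**Figure D2:**
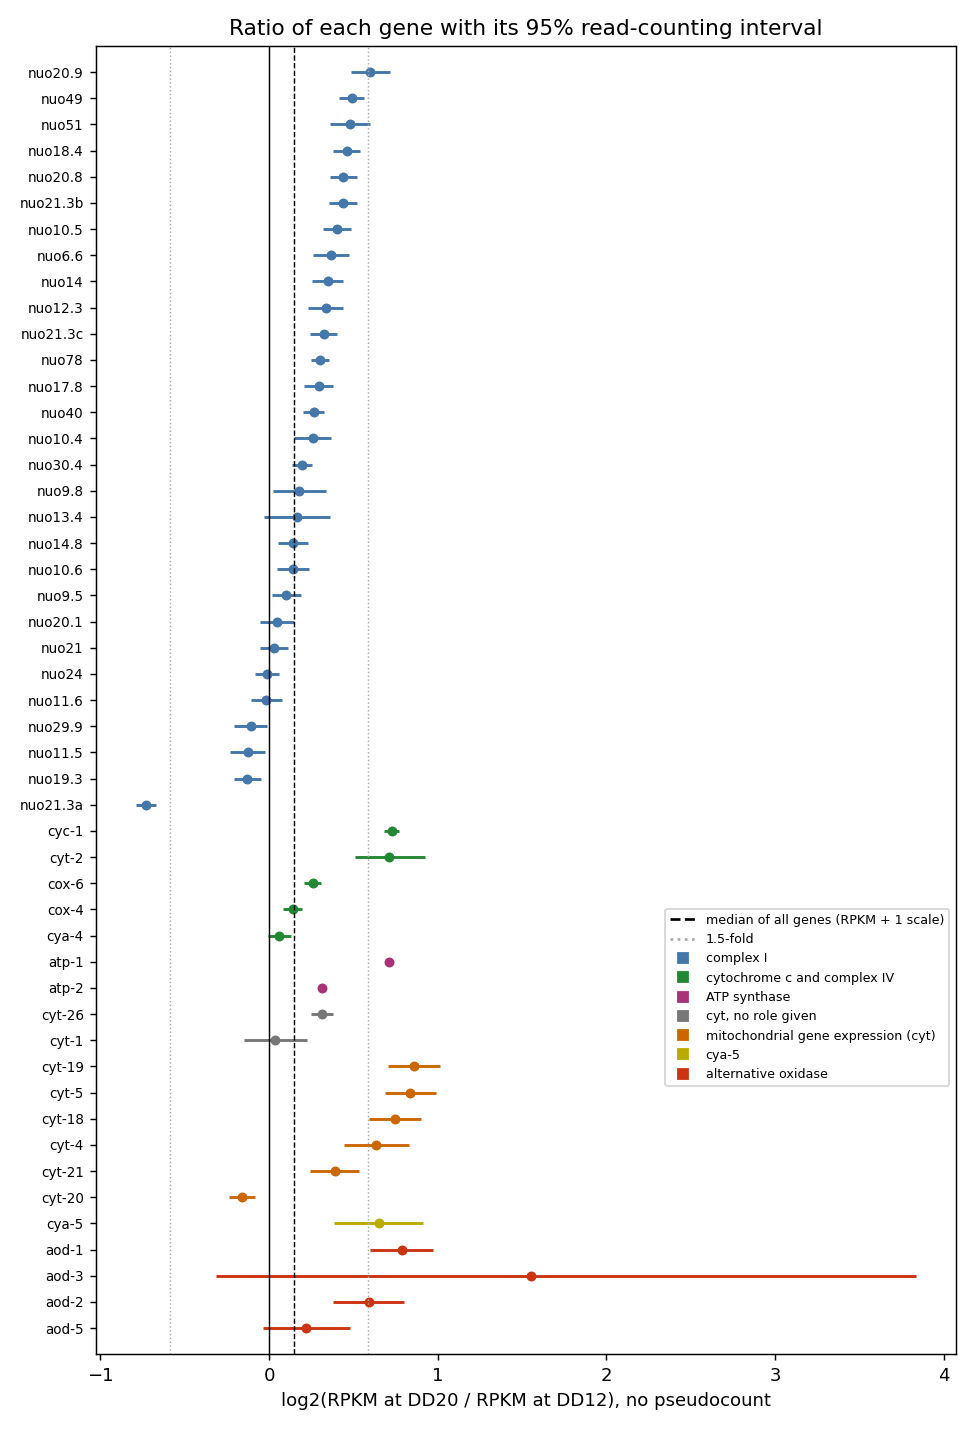
Log2 ratio of RPKM at DD20 over RPKM at DD12 without an added 1, for each of the 49 genes, with its 95% read-counting interval (bars; atp-1 has none, and that of atp-2 is narrower than its point). The solid line is 0, the dashed line is the median of all genes on the RPKM + 1 scale (0.15), and the dotted lines mark 1.5-fold. The nuo genes run in a continuous series from 0.60 to -0.13, with nuo21.3a apart at -0.73.

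The 7 nuclear-encoded core subunits, which have bacterial counterparts and include those that carry the flavin and the iron-sulphur clusters, were compared with the other 22. The core genes had a median log2 ratio of 0.30 (-0.13 to 0.48), and the other subunits one of 0.22 (-0.73 to 0.59). After rescaling the medians were 0.099 and 0.016. Within the core, the genes of the NADH-oxidising end did not share a ratio. For nuo51, the flavoprotein, it was 0.47, for nuo78 it was 0.30 (132 RPKM at DD20, 107 RPKM at DD12) and for nuo24 it was -0.013 (149 RPKM at DD20, 150 RPKM at DD12). On the quinone side, nuo49 had 0.48, nuo21.3c 0.32, nuo30.4 0.19 and nuo19.3 -0.13. The levels of the core genes were closer to each other at DD20, with a coefficient of variation of 18.4%, than at DD12, with 26.8%.

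Cytochrome c and complex IV divided. The gene of cytochrome c itself, cyc-1, had 612 RPKM at DD20, from 21208 reads, and 369 RPKM at DD12, from 13127 reads, a log2 ratio of 0.73 with a counting interval of 0.68 to 0.77. The heme lyase that attaches heme to this protein, encoded by cyt-2, was far less abundant but had a similar ratio. It had 20.6 RPKM at DD20 and 12.6 RPKM at DD12, a log2 ratio of 0.67, from 1006 and 629 reads. The subunits of cytochrome oxidase had smaller ratios. For cox-6 the level was 398 RPKM at DD20 and 333 RPKM at DD12, a log2 ratio of 0.26. For cox-4 it was 145 RPKM at DD20 and 131 RPKM at DD12, a log2 ratio of 0.14, and for cya-4 it was 547 RPKM at DD20 and 526 RPKM at DD12, a log2 ratio of 0.059 with a counting interval of -0.0097 to 0.13. After rescaling, cox-4 and cya-4 were below 0. As a result, the level of cyc-1 was 1.12 times that of cya-4 at DD20 and 0.703 times at DD12.

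For cyt-1 and cyt-26 no role is given here, as these symbols could not be tied to a role with certainty, and whether either belongs to complex III is not stated. They differed 18.8-fold in level at DD20 and 15.6-fold at DD12. The level of cyt-26 lay in the range of cyc-1, cox-6 and cya-4, with 464 RPKM at DD20 and 373 RPKM at DD12, a log2 ratio of 0.31. By contrast, cyt-1 had 24.6 RPKM at DD20, from 923 reads, and 24.0 RPKM at DD12, from 922 reads, a log2 ratio of 0.036 that was below 0 after rescaling.

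Of the ATP synthase, the naming rule took the alpha and beta subunits of the catalytic F1 head, which the enzyme holds in equal number. The alpha gene, atp-1, had 733 RPKM at DD20 and 447 RPKM at DD12, a log2 ratio of 0.71. No length up to its RefSeq span gave whole reads at both times, so it has no counting interval. The beta gene, atp-2, had 1053 RPKM at DD20, from 78108 reads, and 848 RPKM at DD12, from 64496 reads, a log2 ratio of 0.31. It was the most abundant member at both times, in place 73 of all genes at DD20 and 64 at DD12. The level of atp-1 was thus 0.696 times that of atp-2 at DD20 and 0.527 times at DD12.

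The cyt genes of mitochondrial gene expression were kept apart from the subunits. They are 6 genes, most of them at much lower levels, with a median of 33.9 RPKM at DD20 and 19.3 RPKM at DD12. Their median log2 ratio was 0.63, and 0.45 after rescaling, against 0.26 and 0.056 for the 35 genes of complex I, cytochrome c, complex IV and the ATP synthase. High ratios of cyt genes in these columns led to the choice of the family, so this contrast is a description only. Of the 6, 5 were above 0 in both scalings, and 1 was below 0. Of all genes, 66.2% were above 0, and 46.5% after rescaling. Each of the 5 had a counting interval above 0 before rescaling.

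The genes acting on RNA had the higher values. For cyt-19, a DEAD-box protein that helps group I introns fold, the level was 47.1 RPKM at DD20 and 25.9 RPKM at DD12, a log2 ratio of 0.83, the highest of the 48 genes. Its RefSeq span overlaps that of pco-1, which had 11.5 RPKM at DD20 and 8.88 RPKM at DD12, a log2 ratio of 0.34. The mitochondrial RNA polymerase gene, cyt-5, had 12.8 RPKM at DD20 and 7.19 RPKM at DD12, from 1965 and 1127 reads, a log2 ratio of 0.76. For cyt-18, the mitochondrial tyrosyl-tRNA synthetase that also acts in group I intron splicing, the level was 21.1 RPKM at DD20 and 12.6 RPKM at DD12, a log2 ratio of 0.70. The RNase II-like protein of cyt-4, which acts in mitochondrial RNA processing, had 9.71 RPKM at DD20 and 6.25 RPKM at DD12, a log2 ratio of 0.56. This gene was 1.55-fold higher without the added 1, and just under 1.5-fold with it. The counting intervals of cyt-4, cyt-5, cyt-18 and cyt-19 overlapped one another.

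The genes placed under translation, cyt-21 and cyt-20, were lower in ratio. This depends on the grouping, as cyt-18 (0.70) is also a tRNA synthetase but was placed with the genes acting on RNA. The mitochondrial ribosomal protein gene cyt-21 had 46.7 RPKM at DD20 and 35.7 RPKM at DD12, a log2 ratio of 0.38. The valyl-tRNA synthetase gene cyt-20, which RefSeq also lists as un-3 and which serves both the cytosol and the mitochondria, had 88.8 RPKM at DD20 and 99.3 RPKM at DD12. Its log2 ratio was -0.16 with a counting interval of -0.24 to -0.084, and without it the median of the group was 0.70. A gene with a related task, cya-5, is needed for the expression of the mitochondrial COX1 gene. It had 5.26 RPKM at DD20, from 604 reads, and 3.36 RPKM at DD12, from 395 reads, a log2 ratio of 0.52. With cya-5 added the median of the group was 0.56.

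**Figure D3:**
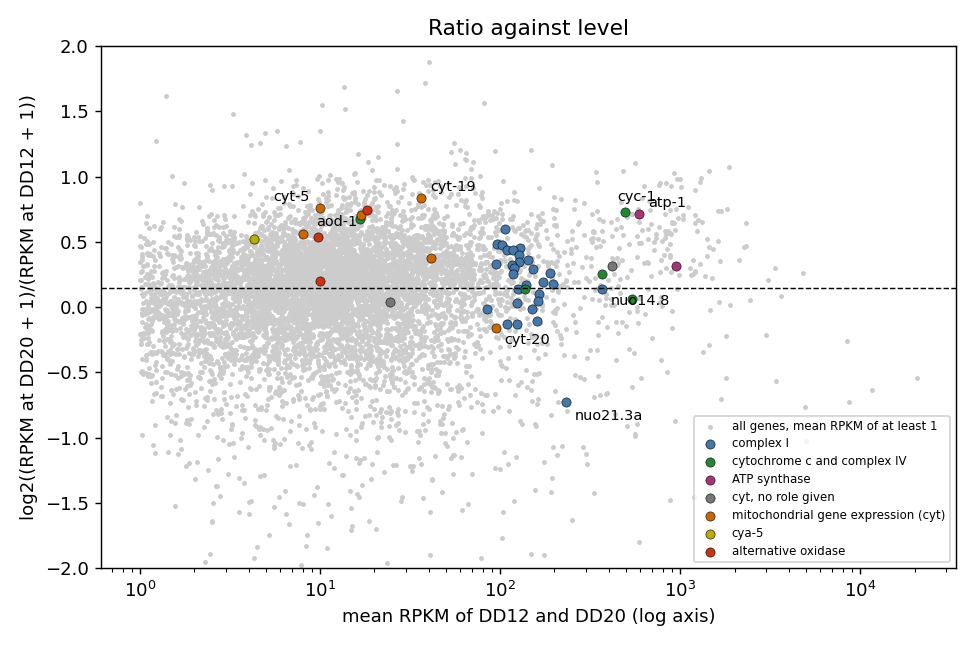
Log2((RPKM at DD20 + 1)/(RPKM at DD12 + 1)) against mean RPKM (log axis) for the 48 genes (coloured) and all expressed genes (grey, of which 25 lie outside the plotted range of 2 to either side). The dashed line is the median of all genes, 0.15. The genes of mitochondrial gene expression lie mostly at lower mean RPKM than complex I and mostly higher in ratio. The exception in both is cyt-20, whose mean of 94.1 RPKM is within the range of complex I.

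As the groups differ in level, all genes of like level are given for comparison, in classes drawn after the values were seen. Among all 3066 genes with a mean of 10 to 50 RPKM, the median log2 ratio was 0.17 and 9.002% were 1.5-fold higher at DD20. In this class lay 7 members with a median of 0.70, of which 5 were higher by 1.5-fold. They are cyt-1, cyt-2, cyt-5, cyt-18, cyt-19, cyt-21 and aod-1. As high ratios of cyt genes in these columns led to the choice of the family, this contrast is a description only. Among all 878 genes with a mean of 50 to 400 RPKM, the median was 0.20 and 14.1% were higher by 1.5-fold. Here lay 32 members, most of complex I, with a median of 0.22, of which 1 was higher by 1.5-fold. Above 400 RPKM, 183 genes had a median of 0.36 and 30.1% were higher by 1.5-fold, while the 5 members had a median of 0.31 and 2 of them were higher by 1.5-fold. At 1 to 10 RPKM, 3287 genes had a median of 0.11 and 5.11% were higher by 1.5-fold, while the 4 members had a median of 0.53 and none was higher by 1.5-fold.

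The alternative oxidase genes were low. The enzyme is encoded by aod-1, which had 23.0 RPKM at DD20, from 1291 reads, and 13.4 RPKM at DD12, from 768 reads, a log2 ratio of 0.74 with a counting interval of 0.60 to 0.97. Its level was 0.0420 times that of cya-4 at DD20 and 0.0254 times at DD12. A second alternative oxidase gene, aod-3, had 1.05 RPKM at DD20 and 0.359 RPKM at DD12. These values rest on at least 20 and 7 reads, and the counting interval of the plain log2 ratio, -0.32 to 3.84, crossed 0. The 2 genes aod-2 and aod-5 encode zinc cluster regulators needed for induction of aod-1. For aod-2 the level was 11.7 RPKM at DD20 and 7.77 RPKM at DD12, a log2 ratio of 0.53. For aod-5 it was 10.7 RPKM at DD20 and 9.23 RPKM at DD12, a log2 ratio of 0.20 with a counting interval of -0.038 to 0.48.

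Genes of the same pathway with other symbols were read from a list of 11. All 11 were above 0, against 66.2% of all genes, with a median log2 ratio of 0.39, and 8 of the 11 were above 0 after rescaling, against 46.5%. At 1.5-fold, 3 were higher (ndi-1, nde-2 and qcr7), against 8.40% of all genes, and none was lower, against 6.66%. Both ndi-1 and nde-2 encode alternative NAD(P)H dehydrogenases, single proteins that feed electrons to quinone without complex I, and both were above 2-fold, against 0.742% of all genes. For ndi-1 the level was 7.52 RPKM at DD20, from 726 reads, and 2.37 RPKM at DD12, from 235 reads, a log2 ratio of 1.34. For nde-2 it was 87.3 RPKM at DD20 and 39.2 RPKM at DD12, a log2 ratio of 1.13. The related nde-1 and nde-3 had log2 ratios of 0.35 and 0.027. The level of ndi-1 was 0.0628 times that of nuo51 at DD20 and 0.0276 times at DD12.

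In this list, 4 genes belong to complex III. The log2 ratio was 0.63 for qcr7 (249 RPKM at DD20, 161 RPKM at DD12), 0.55 for pep, a core protein that also acts in presequence processing (571 and 389 RPKM), and 0.46 for fes-1, the Rieske iron-sulphur protein (303 and 220 RPKM). It was 0.073 for qcr8 (603 RPKM at DD20, 573 RPKM at DD12), so the 4 did not share a ratio. The proteolipid gene of the ATP synthase, oli, had 3302 RPKM at DD20 and 2859 RPKM at DD12, a log2 ratio of 0.21. The complex I assembly genes cia84 and cia30 had log2 ratios of 0.39 and 0.12.

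Among other mitochondrial genes, the 18 import genes named tom or tim had a median log2 ratio of 0.49 (0.11 to 0.83). Of these, 7 were 1.5-fold higher at DD20, against 8.40% of all genes, and none was lower, against 6.66% of all genes. The import genes lie at means of 10 to 50 RPKM, where 9.002% of genes were higher by 1.5-fold, and of 50 to 400 RPKM, where 14.1% were. After rescaling the median was 0.29, and 16 of the 18 were above 0, against 46.5% of all genes. Counts past 1.5-fold after rescaling were not taken for the import, tca and other respiratory lists. Rescaling lowers every ratio, and for the members this count fell from 8 to 1. The 16 tca genes had a median of 0.46 (-0.30 to 0.82), and 0.26 after rescaling. Of the 16, 2 were higher by 1.5-fold and none was lower. The share of 12.5% lies between the 8.40% of all genes and the 14.1% at 50 to 400 RPKM. Complex I, with 0.26 and 0.056 after rescaling, was thus below both lists in its median, and the cyt genes of mitochondrial gene expression were above both. As high ratios of cyt genes led to the choice of the family, their place above both lists is a description only. Single genes of these lists, tim54 (0.83) and tca-4 (0.82), were about as high as cyt-19 (0.83). Differences between these lists were not tested, since genes are not replicates.

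**Figure D4:**
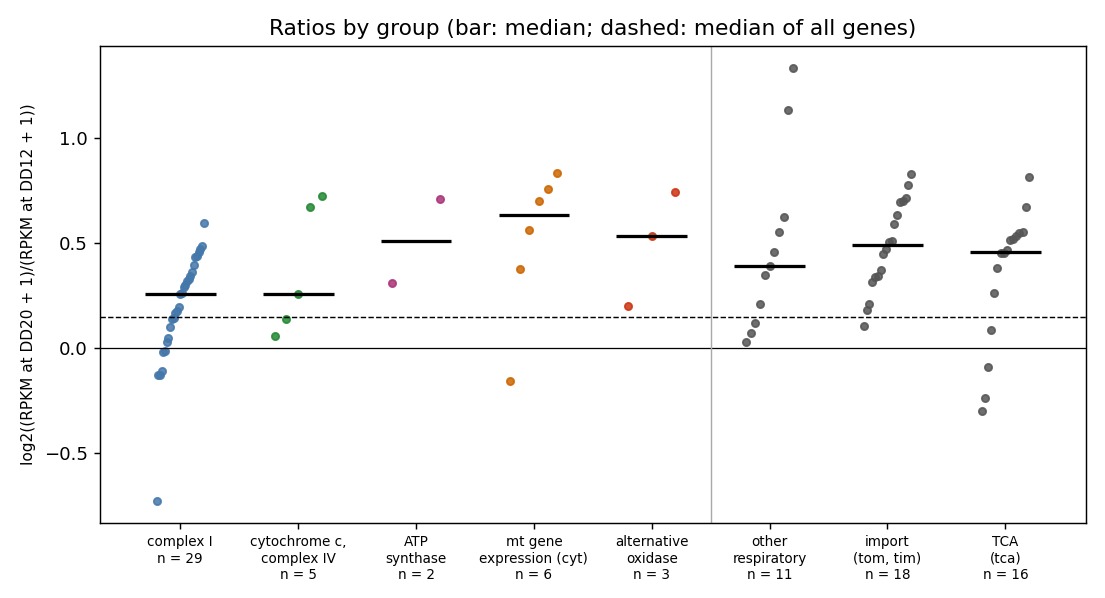
Log2((RPKM at DD20 + 1)/(RPKM at DD12 + 1)) of single genes by group, with the median of each group (bar), the median of all genes (dashed line) and 0 (solid line). Left of the grey line are members averaging at least 1 RPKM, without cyt-1, cyt-26 and cya-5, and right of it the comparison lists. The median is 0.26 in complex I and 0.63 in the cyt genes of mitochondrial gene expression, where cyt-20 is the one gene below 0.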

How the data were processed

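The authors deposited 1 table of RPKM values (reads scaled to gene length and library total) for WT at DD20 and DD12, with 1 column each, and both columns were used. The submitters' processing notes name CASAVA 1.8 and HISAT, without their roles. The counting method, gene models, strand handling and genome build are not given in the sources used here. Without strand, reads of overlapping genes cannot be told apart, and 13 of the 49 members overlap another gene in RefSeq (assembly NC12), which had an entry for all 49. RefSeq was used for names, spans and overlaps only.

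The analysis used Python 3.11.15, pandas 2.3.3, numpy 2.4.6, scipy 1.17.1 and matplotlib 3.10.9. Genes averaging at least 1 RPKM were kept, and a pseudocount of 1 was added before the log2. Library totals were taken from the steps between low values, and the length of a gene from any whole number of nt, up to the RefSeq span, at which both columns gave whole reads (within 0.003 reads). Where several lengths did, the fewest reads were used. Reads were divided by 2 for intervals, since it is not stated whether mates of a pair were counted apart. The steps were tested on simulated data.

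The members and lists were chosen with earlier results of these data known. By rule, all aod, cya, cyc, cox and cyt genes are named, and of the nuo and atp genes the 3 highest, the 3 lowest and the most and least abundant, with every member past 1.5-fold or below the minimum. Others were named after their values were seen. The list of other respiratory genes was to include sdh and coq genes, and a list of mrp genes was planned, but no symbol of theirs matched. A planned search of promoters for motifs was not run, as no sequences were used, and no sequence is printed. The only mitochondrial-genome entries matched in the table were 28 tRNA genes listed at 0, so subunits made in the organelle were not analysed here. Alternatives were pseudocounts of 0.1 and 5, no filter or a mean RPKM of at least 10, centred ratios, and rescaling without the 10 most abundant genes.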

Additional observations from a re-analysis of the deposited data

How the results depend on the processing

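No paired analysis was possible because each time point has a single column, and no replicate could be left out for the same reason. A median or a ratio was counted as moved where it changed by more than the counting error of its genes (the median half-width of their intervals). With ratios centred on the median of all genes (0 by construction), the median log2 ratio was 0.16 for the members, 0.11 for complex I, 0.11 for cytochrome c with complex IV and 0.36 for the ATP synthase, and 3 members were higher at DD20 by 1.5-fold, against 3.68% of all genes. After rescaling without the 10 most abundant genes, the medians were 0.10, 0.056, 0.056 and 0.31 in the same order, 0.45 for the cyt genes of mitochondrial gene expression and -0.027 for all genes, and 1 member was higher by 1.5-fold, against 3.02%. In both settings the columns are shifted by construction. With a pseudocount of 5 the median of these cyt genes was 0.47 and 4 members were higher by 1.5-fold, against 4.57%, since an added 5 weighs on genes of low level. With a pseudocount of 0.1, 10 members were higher by 1.5-fold (cyt-4 and cya-5 added), against 11.5%. Without a filter 9 were (aod-3 added), against 6.11%, and the median of all 10559 genes was 0.040. With a mean of at least 10 RPKM it was 8, against 11.03%. In every setting run, nuo21.3a was the 1 member lower at DD20 by 1.5-fold, cyt-19 was among those higher, and no member differed by 2-fold. Of the single genes, 8 changed sign with centred ratios (33 of 48 above 0, against 3707 of all 7414 genes by construction). After rescaling 11 did (30 of 48 above 0, against 46.5% of all genes). Only a gene whose ratio lay between 0 and the shift could change sign in these settings. No sign changed in the other settings. Depth limits aod-3 most.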

Other observations

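Some mitochondrial genes outside the naming rule, chosen after their values were seen, are given as values only. The ADP/ATP carrier gene aac had 2611 RPKM at DD20 and 1900 RPKM at DD12, a log2 ratio of 0.46, and the porin gene por had 879 RPKM at DD20 and 683 RPKM at DD12, a log2 ratio of 0.36. For core protein 2 of complex III, which the table lists by its product name, the level was 328 RPKM at DD20 and 210 RPKM at DD12, a log2 ratio of 0.64. The chaperonin gene hsp60 had 107 RPKM at DD20 and 63.8 RPKM at DD12, a log2 ratio of 0.73, and hsp70-5 had 255 RPKM at DD20 and 142 RPKM at DD12, a log2 ratio of 0.84. For mpp, which encodes a subunit of the processing peptidase, the level was 36.6 RPKM at DD20 and 25.1 RPKM at DD12, a log2 ratio of 0.53.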
